A study of Mus musculus with 44 samples.

Results

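The wild-type response 3 h after contextual fear conditioning was examined in dorsal hippocampus, as the difference between 6 wild-type mice killed 3 h after training (3 h) and 6 home cage, test-naive wild-type mice (0 h). These 12 libraries, 1 per mouse, were chosen by their genotype and time labels from a series of 44 samples, of which 36 had count files here. Every mouse was the wild-type F2 offspring of a C57BL/6J by 129S2/Sv cross in which the Kdm5b deltaARID allele was segregating, so the 12 animals shared no deletion and differed in segregating background alleles. Each group held 3 animals labelled male and 3 labelled female, young adults at collection. Trained mice explored a chamber for 148 s and then received electric shocks of 0.7 mA lasting 2 s each and spaced 30 s apart. Mice exposed to the chamber without shock were not part of the design, so shock, context exposure, handling and time of day cannot be told apart in the difference between 3 h and 0 h.

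Memory of a context that predicts shock depends on the hippocampus, and its consolidation needs new transcription and translation in the hours after training. Neuronal activity first induces immediate early genes, which encode transcription factors such as Fos and Egr proteins, and these are followed by genes for synaptic and signalling effectors. Footshock is also a stressor that raises circulating glucocorticoids, hormones that enter the brain and act on the glucocorticoid receptor, itself a transcription factor.

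Library totals ran from 40274435 to 69151754 counts at 0 h (median 66925015) and from 70992683 to 107000233 counts at 3 h (median 81589026), so the depths of the 2 groups did not overlap. The values were therefore also computed after thinning all 12 libraries to 40274435 counts. Markers of dentate granule cells, CA1 and CA3 pyramidal neurons, interneurons and glia were all detected. Choroid plexus markers, which come from tissue beside the hippocampus, varied widely within both groups, with a summed level of 252 to 8164 CPM (counts scaled to a common library total) at 0 h and 176 to 12055 CPM at 3 h. By labelled sex, their median log2 difference was 1.93 between the male groups and -2.60 between the female groups.

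At 3 h no gene passed the test against 0 h. edgeR's quasi-likelihood test with sex as a covariate called 0 of 17438 genes (0%) at an adjusted p under 0.05, and the smallest adjusted p was 0.114. At an unadjusted p under 0.05, 797 genes were higher at 3 h (4.57% of those tested) and 639 were lower (3.66%), 1436 in all. DESeq2 on the same counts and covariate called 62 genes, 37 higher and 25 lower. For 40 genes (0.229%) every 3 h library lay above every 0 h library, and for 31 genes (0.178%) every 3 h library lay below. The fitted level was higher at 3 h for 8471 of the 17438 genes (48.6%). The median log2 difference over all genes was 0.00 (-0.0034), and no member of any list below was called by edgeR. All differences are on the log2 scale, 3 h minus 0 h, with the standard error (SE) of the fit.

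The 12 genes with the smallest p among those higher at 3 h had differences of 0.16 to 0.40. Pde10a, a phosphodiesterase that breaks down cyclic nucleotides, led them. Its level ran from 83.1 to 96.1 CPM at 0 h (median 88.9) and from 105 to 118 CPM at 3 h (median 113). The groups did not overlap, the difference was 0.33 ± 0.05 (SE) and edgeR's adjusted p was 0.114. Fmnl1, a formin that assembles actin filaments, lay between 118 and 141 CPM at 0 h (median 129) and between 154 and 170 CPM at 3 h (median 160). Its groups did not overlap either, with a difference of 0.30 ± 0.05 and an adjusted p of 0.215 by edgeR. Mrtfa, a coactivator of serum response factor that is released by actin polymerization, lay between 78.4 and 94.3 CPM at 0 h and between 97.0 and 123 CPM at 3 h (medians 86.2 and 111), a difference of 0.36 ± 0.07. Cad, which carries the opening steps of pyrimidine synthesis, had a mean of 27.0 ± 1.34 CPM at 0 h (SD, n = 6) and 33.1 ± 2.57 CPM at 3 h. Its difference was 0.29 ± 0.05. In each of these 4 genes all 6 trained libraries exceeded all 6 naive libraries.

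The other 8 genes of that set were the tetraspan gene Lhfp (0.40), the phospholipase gene Pnpla7 (0.38), Ksr1 (0.35), the oxysterol-binding protein gene Osbpl6 (0.26), the kinase gene Sbk1 (0.27), Kcnip2 (0.26), Rhot2 (0.17) and Atf6b (0.16). Ksr1 is a scaffold of the Raf-MEK-ERK cascade, Kcnip2 an accessory subunit of A-type potassium channels, Rhot2 an adaptor for mitochondrial transport, and Atf6b a membrane-bound transcription factor of the endoplasmic reticulum (ER). For 8 of the 12 the groups did not overlap, and DESeq2's adjusted p was under 0.05 for all 12. edgeR's adjusted p ran from 0.114 to 0.394.

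Among the 12 genes with the smallest p that were lower at 3 h, Tnc, which encodes the extracellular matrix glycoprotein tenascin-C, ran from 9.35 to 16.9 CPM at 0 h (median 12.1) and from 6.38 to 8.5 CPM at 3 h (median 8.08). All trained libraries were below all naive libraries, the difference was -0.67 ± 0.11 and edgeR's adjusted p was 0.215. A2ml1, a protease inhibitor of the alpha-2-macroglobulin family, had 8.52 ± 1.01 CPM at 0 h (SD, n = 6) and 5.99 ± 0.817 CPM at 3 h, a difference of -0.51 ± 0.09 without overlap. Atp8b1, a phospholipid flippase, differed by -0.66 and Hmgcll1, a lyase of the ketone body pathway, by -0.24, again with no overlap between groups. Opalin, a membrane protein of oligodendrocytes, had 24.9 to 39.1 CPM at 0 h (median 33.05) and 16.8 to 27.95 CPM at 3 h (median 21.85). Here the groups overlapped, and the difference was -0.55 ± 0.12. Aspa, the aspartoacylase of oligodendrocytes, differed by -0.48, the laminin gene Lama4 by -0.49, the protease inhibitor gene Serpinb1a by -0.62, the synaptotagmin-like gene Sytl2 by -0.33 and the predicted gene Gm13293 by -0.70. With Cyp51 and Mvd, described with the sterol genes, 6 of the 12 showed no overlap between groups, DESeq2's adjusted p was under 0.05 for all 12, and edgeR's ran from 0.215 to 0.421. Kdm5b, the histone demethylase gene altered in the series' mutants, had 86.3 ± 2.82 CPM at 0 h and 88.9 ± 2.26 CPM at 3 h (SD, n = 6), with an adjusted p of 0.807 by edgeR.

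**Figure D1:**
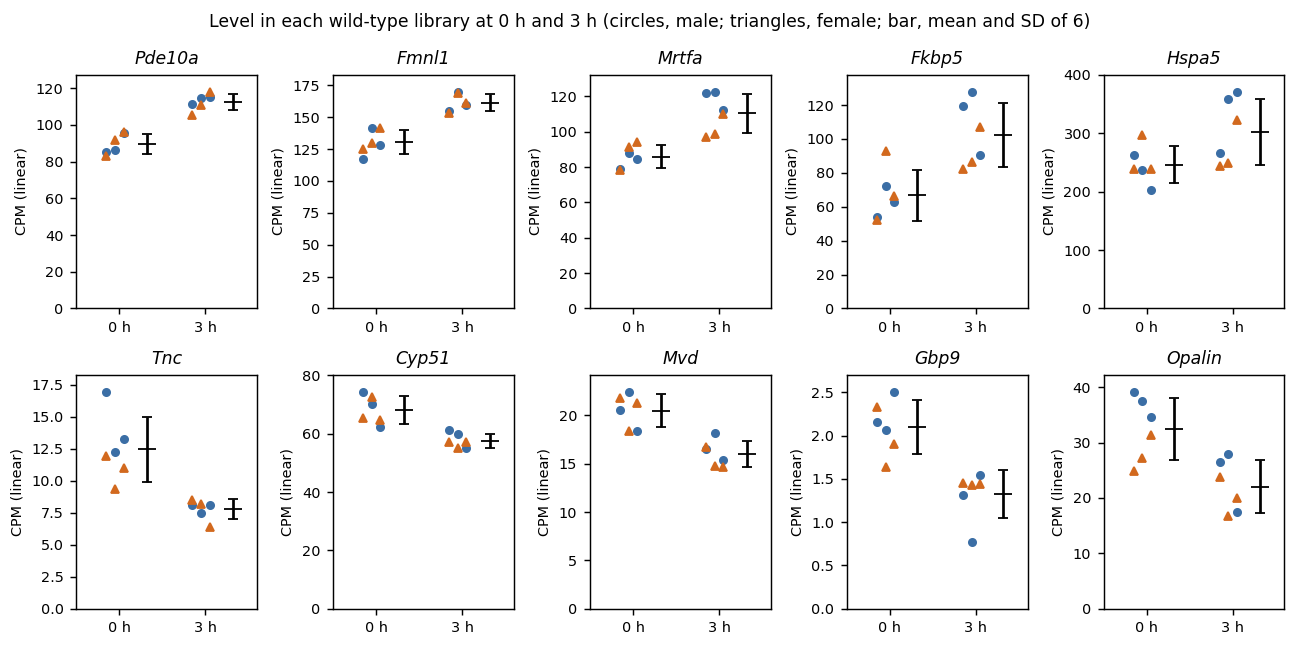
Level of 10 genes in CPM on a linear axis from 0, in the 6 wild-type libraries at 0 h and the 6 at 3 h; circles are mice labelled male, triangles mice labelled female, and bars the mean and SD. Pde10a, Fmnl1 and Mrtfa lie higher in all 6 libraries at 3 h, and Tnc, Cyp51, Mvd and Gbp9 lower in all 6, while Fkbp5, Hspa5 and Opalin overlap between groups.

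Glucocorticoid-responsive genes lay higher at 3 h. Of the 20 members tested, 19 had a higher fitted level (48.6% of all genes) and 1 a lower one. At an unadjusted p under 0.05, 7 were higher (4.57% of all genes) and none was lower (3.66%). Here and below, lists were chosen with earlier results of these data known. The list median was 0.38, against 0.00 (-0.0034) over all genes, and 0.0889 when DESeq2 shrank the fold changes with a prior and sex was left out. Fkbp5, the receptor cochaperone used as a marker of glucocorticoid action, ran from 52.0 to 93.1 CPM at 0 h (median 64.6) and from 82.3 to 128 CPM at 3 h (median 98.7). Of the 6 trained libraries 3 lay above every naive one, and the difference was 0.61 ± 0.16 with an adjusted p of 0.421 by edgeR. Zbtb16, a zinc finger repressor, had 89.2 ± 11.8 CPM at 0 h and 123 ± 28.04 CPM at 3 h (SD, n = 6), a difference of 0.45 ± 0.11. Tsc22d3, which encodes the leucine zipper protein GILZ, overlapped widely, from 39.5 to 92.9 CPM at 0 h and from 48.0 to 125 CPM at 3 h, with a difference of 0.50 ± 0.30. The metallothionein genes Mt1 and Mt2, whose products bind zinc, differed by 0.36 and 0.49, and Klf9, a zinc finger transcription factor, by 0.25. The members with the widest differences, named after their values were seen, were the lipid droplet coat gene Plin4 (1.82 ± 0.77) and Hif3a (1.14 ± 0.41), a member of the hypoxia-inducible factor family.

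A single naive mouse, replicate F2, had the highest level of the naive libraries in this list. Its mean over the 20 members, relative to the mean of the naive libraries, was 0.73 on the log2 scale, whereas the other 5 naive libraries lay between -0.34 and 0.26. The trained libraries lay between 0.15 and 1.00. Plin4 had 24.2 CPM in that naive library and a median of 2.83 CPM at 0 h, against 10.1 to 37.55 CPM at 3 h. Without this library edgeR called 8 genes, 7 higher and 1 lower. These were Plin4 (2.96, adjusted p = 0.0118), the sulfotransferase gene Sult1a1 (0.98), the tensin gene Tns2 (0.40), the BAF chromatin remodelling subunit gene Smarcd2 (0.39), Lhfp (0.47), Pde10a (0.34), Kcnip2 (0.29) and Tnc (-0.73). The list median without it was 0.60. This library was picked for its high level in this list, so a higher list median without it follows from that choice. Leaving out any other single library gave 0 called genes.

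Chaperones of the ER and genes of the unfolded protein response, which raises the folding capacity of that compartment, also lay higher at 3 h. Of 19 members 18 had a higher fitted level (48.6% of all genes) and 8 were higher at an unadjusted p under 0.05 (4.57%). Against these stood 1 lower member (Atf4, -0.05), and none was lower at that threshold (3.66%). The median was 0.14. Hspa5, which encodes the main ER chaperone BiP, ran from 203 to 298 CPM at 0 h (median 239) and from 244 to 371 CPM at 3 h (median 295). Of the 6 trained libraries 3 exceeded all naive ones, and the difference was 0.29 ± 0.12 with an adjusted p of 0.597 by edgeR. Herpud1, a component of ER-associated degradation, had 36.2 ± 3.735 CPM at 0 h and 42.9 ± 3.70 CPM at 3 h (SD, n = 6), a difference of 0.25 ± 0.07. Xbp1, the transcription factor activated by unconventional splicing in this response, differed by 0.27 ± 0.08, with 57.5 ± 6.51 and 69.3 ± 7.56 CPM. Hsp90b1, the ER member of the Hsp90 family, had 306 ± 19.9 and 316 ± 29.8 CPM, a difference of 0.05 ± 0.06. Atf6b was not part of the list. The largest fitted difference within it was that of the cochaperone gene Sdf2l1 (0.43).

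The promoters of this list shared sequence features, shown here for Hspa5 and Herpud1 because the members lay on the same side. The printed stretches are the 250 bases before the annotated start site, from RefSeq on GRCm38.p6, 5′ to 3′ on the gene's strand, at chr2:34771840-34772089 on the plus strand for Hspa5 and chr8:94386179-94386428 on the plus strand for Herpud1. Capitals mark CCAAT on either strand (ATTGG on the opposite strand) and, where present, the fixed letters of the ER stress response element, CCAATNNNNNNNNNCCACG.
Hspa5: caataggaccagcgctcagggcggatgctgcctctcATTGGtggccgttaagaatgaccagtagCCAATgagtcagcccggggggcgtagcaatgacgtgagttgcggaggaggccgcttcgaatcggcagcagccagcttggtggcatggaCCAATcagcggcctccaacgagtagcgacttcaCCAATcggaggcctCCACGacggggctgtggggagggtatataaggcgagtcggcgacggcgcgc
Herpud1: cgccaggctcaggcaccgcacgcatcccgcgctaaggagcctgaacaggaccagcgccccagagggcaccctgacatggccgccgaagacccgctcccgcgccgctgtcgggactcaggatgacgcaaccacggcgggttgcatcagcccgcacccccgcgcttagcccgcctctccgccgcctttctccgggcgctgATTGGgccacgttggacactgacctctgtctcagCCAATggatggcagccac
Hspa5 held 4 CCAAT boxes, of which 1 was part of a complete ER stress response element. Herpud1 held 2 CCAAT boxes and no complete element within its 250 bases. Its window ends with CCAAT, 9 bases and CCAC, 1 base short of the element. The base after the window was not tested, and no other spelling of the element was searched. Of 17 tested members with a promoter entry, 6 held the element (Hspa5, Hsp90b1, Calr, Creld2, Dnajc3 and Pdia6), against 0.161% of the 13033 tested genes with an entry and 0.113% of all 32851 promoter windows of this length, searched on both strands. A gene with several windows was counted where any of them held the letters. CCAAT was found in 15 of the 17, against 39.6% of tested genes and 33.8% of all windows. A match describes the letters and not a bound site.

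Sterol synthesis genes lay lower at 3 h. These genes encode enzymes of the mevalonate and cholesterol pathway and their regulators, most of them targets of the SREBP transcription factors. Of 19 members 18 had a lower fitted level (51.4% of all genes) and 13 were lower at an unadjusted p under 0.05 (3.66%). None was higher at that threshold (4.57%). The median was -0.15. Cyp51, which encodes lanosterol demethylase, ran from 62.3 to 74.2 CPM at 0 h (median 67.7) and from 55.1 to 61.1 CPM at 3 h (median 57.2). Mvd, the mevalonate diphosphate decarboxylase gene, ran from 18.4 to 22.4 CPM at 0 h (median 20.9) and from 14.7 to 18.1 CPM at 3 h (median 15.9). In both genes every trained library lay below every naive library. The differences were -0.24 ± 0.05 for Cyp51 and -0.35 ± 0.07 for Mvd, both with an adjusted p of 0.373 by edgeR.

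Hmgcs1, which encodes the synthase at the head of the pathway, differed by -0.19 ± 0.06. It had 260 ± 19.6 CPM at 0 h and 227 ± 19.9 CPM at 3 h (SD, n = 6). Outside the enzymes, Insig1, the ER protein that retains SREBP, differed by -0.33 ± 0.09. Srebf2, which encodes the SREBP that drives this pathway, was the single member with a higher fitted level (0.02). The mean over the 19 members, relative to the naive mean, lay between -0.10 and 0.07 in the 6 naive libraries and between -0.24 and -0.11 in the 6 trained libraries. The nearest libraries of the 2 groups were -0.1031 and -0.1056, and the summed level of the list overlapped, with 1211 to 1365 CPM at 0 h and 1129 to 1240 CPM at 3 h.

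The promoters of Cyp51, Mvd and Hmgcs1 are shown for the same reason as above. They are the 250 bases before the start site at chr5:4104698-4104947 on the minus strand for Cyp51, chr8:122443423-122443672 on the minus strand for Mvd and chr13:119690101-119690350 on the plus strand for Hmgcs1, from RefSeq on GRCm38.p6. Capitals mark CCAAT on either strand and the sterol element TCACNCCAC.
Cyp51: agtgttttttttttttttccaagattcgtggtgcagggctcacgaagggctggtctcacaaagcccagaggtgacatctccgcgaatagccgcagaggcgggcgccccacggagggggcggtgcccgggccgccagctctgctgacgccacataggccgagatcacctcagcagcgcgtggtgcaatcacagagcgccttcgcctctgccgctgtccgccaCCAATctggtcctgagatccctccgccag
Mvd: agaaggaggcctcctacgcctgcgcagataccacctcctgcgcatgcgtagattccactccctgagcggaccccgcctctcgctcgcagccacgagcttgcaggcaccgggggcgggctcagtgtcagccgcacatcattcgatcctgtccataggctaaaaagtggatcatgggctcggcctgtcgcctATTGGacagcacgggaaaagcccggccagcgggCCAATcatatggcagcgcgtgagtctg
Hmgcs1: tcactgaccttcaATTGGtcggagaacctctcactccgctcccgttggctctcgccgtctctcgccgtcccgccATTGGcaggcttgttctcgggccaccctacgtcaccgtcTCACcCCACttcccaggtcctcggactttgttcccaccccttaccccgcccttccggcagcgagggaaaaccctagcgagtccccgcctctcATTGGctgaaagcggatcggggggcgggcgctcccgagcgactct
CCAAT was found in at least 1 window of all 13 tested members with a promoter entry, counted by gene, against 39.6% of tested genes and 33.8% of all windows. The sterol element in this spelling was found in 1 of the 13, Hmgcs1, against 1.22% of tested genes and 1.05% of all windows, and neither Cyp51 nor Mvd held it.

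Interferon-responsive genes lay lower at 3 h, at low levels. These genes act in antiviral defence. Of 19 members 18 had a lower fitted level (51.4% of all genes), and the median was -0.26. At an unadjusted p under 0.05, 6 were lower (3.66% of all genes) and 1 was higher (Stat2, 0.12), against 4.57% of all genes. The median was -0.0967 when DESeq2 shrank the fold changes with a prior and sex was left out. Gbp9, a guanylate-binding protein gene, ran from 1.64 to 2.50 CPM at 0 h (median 2.11) and from 0.771 to 1.54 CPM at 3 h (median 1.43), with no overlap. Its difference was -0.67 ± 0.18 and its adjusted p was 0.421 by edgeR. Gbp2 also separated, from 2.34 to 2.92 CPM at 0 h and from 1.41 to 2.24 CPM at 3 h, a difference of -0.47 ± 0.14. Rnf213, a large ubiquitin ligase, had 16.6 ± 0.995 CPM at 0 h and 13.1 ± 1.96 CPM at 3 h (SD, n = 6), a difference of -0.34 ± 0.09. Ifit1 and Ifit3, which bind viral RNA or its partners, differed by -0.12 ± 0.20 and -0.34 ± 0.15. Ifit3 has a near-identical copy, Ifit3b, and how reads were divided between them is not given. The mean over the list lay between -0.16 and 0.18 in the naive libraries and between -0.43 and -0.17 in the trained libraries, with the nearest libraries at -0.163 and -0.1706. The summed level of the list overlapped, with 139 to 176 CPM at 0 h and 128 to 156 CPM at 3 h.

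The letters of an interferon-type element, a repeat of GAAA with NN between the copies, searched on both strands, were found in the promoters of 10 of 15 tested members with an entry, against 3.09% of tested genes and 2.98% of all windows. A pair of glucocorticoid half-sites, ACANNNTGT, was found for 4 of 18 tested glucocorticoid-responsive members with an entry, against 4.8% of tested genes and 5.84% of all windows. The window of Gbp2, at chr3:142620413-142620662 on the plus strand (RefSeq, GRCm38.p6), was chosen after its values were seen and carries 1 match on the opposite strand, with its fixed letters in capitals.
Gbp2: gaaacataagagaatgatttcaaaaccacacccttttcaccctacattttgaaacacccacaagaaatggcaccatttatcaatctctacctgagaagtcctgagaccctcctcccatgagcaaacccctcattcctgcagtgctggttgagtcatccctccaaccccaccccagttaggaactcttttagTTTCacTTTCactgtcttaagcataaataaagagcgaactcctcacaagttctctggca

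**Figure D2:**
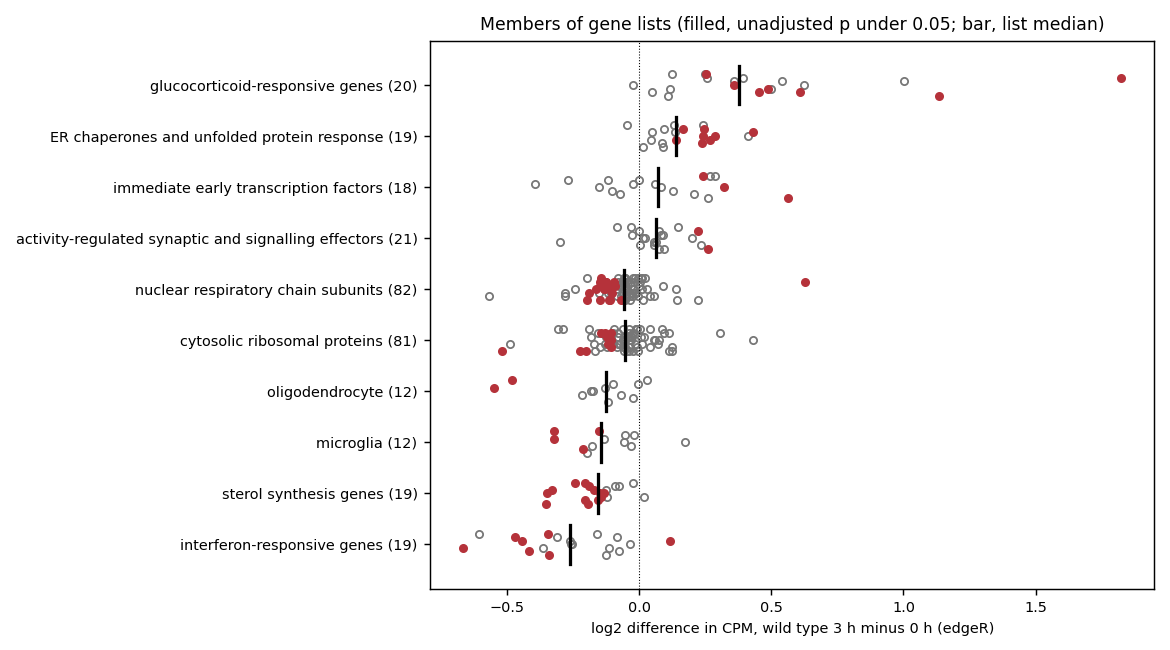
The log2 difference between 3 h and 0 h in wild type (edgeR) for each tested member of 10 lists, with the number of members in brackets; filled points have an unadjusted p under 0.05 and black bars mark the list median. The glucocorticoid (median 0.38) and ER (0.14) lists lie to the right of 0 and the sterol (-0.15) and interferon (-0.26) lists to the left.

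**Figure D3:**
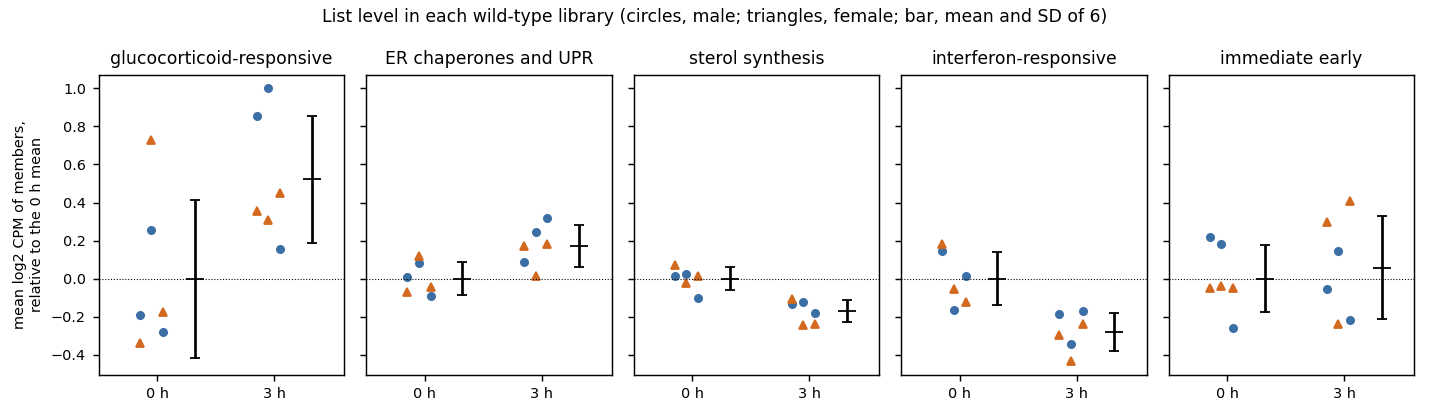
Mean log2 CPM over the members of 5 lists in each wild-type library, relative to the mean of the 6 naive libraries; circles are mice labelled male, triangles female, bars the mean and SD, and UPR is the unfolded protein response. On this measure the sterol and interferon lists lie lower in all 6 libraries at 3 h by a narrow margin, with nearest libraries at -0.1031 and -0.1056 for sterol genes, and 1 naive female lies at 0.73 in the glucocorticoid list.

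Immediate early transcription factors had a list median of 0.07 at 3 h, with 11 of 18 members above 0. With single libraries left out in turn, the median ran from -0.0198, without trained female F3, to 0.1293, without naive male M1. Of the 18 members, 3 were higher at an unadjusted p under 0.05 (4.57% of all genes) and none was lower. Fos ran from 5.18 to 21.4 CPM at 0 h (median 9.80) and from 4.85 to 17.2 CPM at 3 h (median 10.5). The groups overlapped almost entirely, with a difference of -0.07 ± 0.42. Fosb, by contrast, lay between 6.26 and 12.35 CPM at 0 h and between 9.44 and 18.2 CPM at 3 h (medians 8.59 and 13.6), a difference of 0.56 ± 0.20 in which 4 of 6 trained libraries exceeded all naive ones. Egr3 had 52.45 ± 6.42 CPM at 0 h and 65.5 ± 5.07 CPM at 3 h (SD, n = 6), a difference of 0.32 ± 0.08 with an adjusted p of 0.421 by edgeR and 0.0354 by DESeq2. Fosl2 differed by 0.24 ± 0.07. Relative to the naive mean, the list lay at 0.30 and 0.41 in trained females F1 and F3, and at -0.24 in trained female F2. By labelled sex, the list median was -0.10 between the male groups and 0.22 between the female groups.

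The same 6 naive libraries served the 1 h comparison, so values at 1 h and 3 h are given side by side. The median of the immediate early list was 0.62 at 1 h (0.70 without WT 1 h M1, whose sex label did not match) and 0.07 at 3 h. Fos was at 1.21 and -0.07, Fosb at 1.35 and 0.56, and Egr3 at 0.34 and 0.32. In the direct test of 3 h against 1 h, edgeR called 0 of 17388 genes, with 1288 at an unadjusted p under 0.05, while DESeq2 called 62. In that test 17 of the 18 members were lower at 3 h and 11 had an unadjusted p under 0.05. Without the library labelled WT 1 h M1 edgeR called 3 genes. The list median in the direct test was -0.51 with that library and -0.61 without it. Interferon-responsive genes lay at a median of 0.18 at 1 h (0.25 without WT 1 h M1) and -0.26 at 3 h, and all 19 were lower at 3 h than at 1 h in the direct test (median -0.455, and -0.517 without WT 1 h M1), 11 of them at an unadjusted p under 0.05. Fkbp5 was at 0.13 at 1 h (0.08 without WT 1 h M1) and 0.61 at 3 h, and its direct difference was 0.47 ± 0.11 with an adjusted p of 0.408 by edgeR (0.51 and 0.227 without that library). The glucocorticoid list had a median of 0.30 at 1 h and 0.38 at 3 h, and sterol genes had medians of -0.08 and -0.15. In the direct test the glucocorticoid median was 0.196 (0.183 without WT 1 h M1), with 7 of 20 members lower and 6 at an unadjusted p under 0.05 in either direction. For sterol genes it was -0.096 (-0.103), with 17 of 19 lower and 2 at that threshold.

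**Figure D4:**
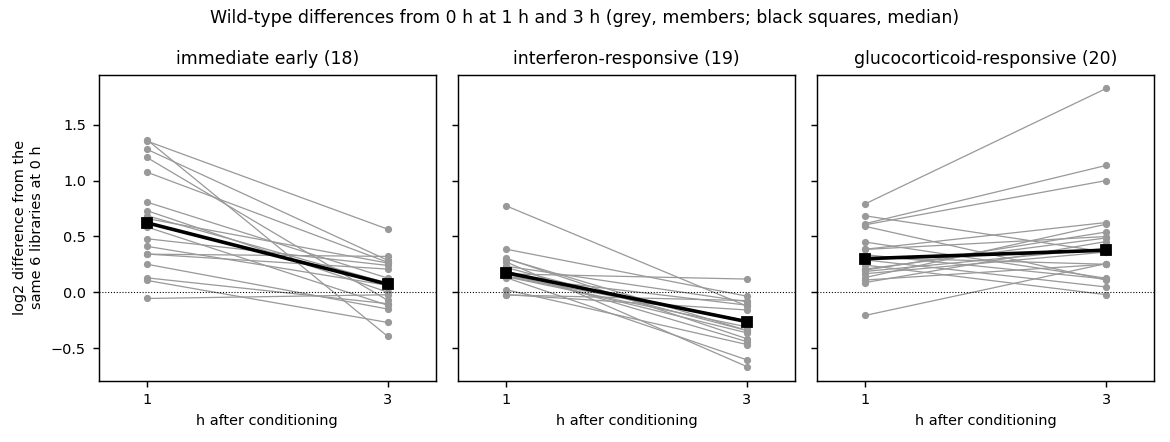
Log2 differences at 1 h and 3 h, both from the same 6 naive libraries, for members of 3 lists (grey) and their medians (black squares). The immediate early median goes from 0.62 to 0.07 and the interferon median from 0.18 to -0.26, while the glucocorticoid median is 0.30 and 0.38.

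Among activity-regulated synaptic and signalling effectors, 16 of 21 members had a higher fitted level at 3 h, against 48.6% of all genes, with 2 at an unadjusted p under 0.05 (4.57% of all genes) and a median of 0.07. The median of these activity-regulated effectors was 0.0389 without naive female F2. These were Nptx2, a neuronal pentraxin that clusters AMPA receptors (0.22 ± 0.10), and Ptgs2, the inducible cyclooxygenase gene (0.26 ± 0.10). Arc, whose product promotes AMPA receptor endocytosis, ran from 91.4 to 163 CPM at 0 h and from 87.9 to 166 CPM at 3 h, a difference of -0.08 ± 0.19 with nearly complete overlap. The list median was -0.04 between the male groups and 0.13 between the female groups.

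Among regulators of small GTPases that act on spine actin, Arhgap39 ran from 144 to 198 CPM at 0 h and from 200 to 224 CPM at 3 h, and Trio from 243 to 270.5 CPM and from 279 to 301 CPM. Neither overlapped between groups, with differences of 0.31 ± 0.08 and 0.15 ± 0.04. Kalrn, a paralog of Trio, had 825 ± 53.8 and 862 ± 35.4 CPM (SD, n = 6), a difference of 0.06 ± 0.05. In the other lists, members with small p stood among members on both sides of 0, so each is given with its list. The purine-degrading xanthine dehydrogenase gene Xdh had 3.81 ± 1.15 CPM at 0 h and 7.96 ± 2.23 CPM at 3 h (SD, n = 6), a difference of 1.04 ± 0.23, and 9 of the 17 pyrimidine and purine enzymes were higher (median 0.02). The Notch coactivator gene Maml2 differed by 0.55 ± 0.14 and the Notch ligand gene Jag1 by 0.31 ± 0.10, with 9 of 16 Notch pathway members higher (median 0.03). Of the BAF subunits, Arid1b differed by 0.18 ± 0.04, with 14 of 22 higher. The T-type calcium channel gene Cacna1h differed by 0.31 ± 0.08, with 7 of 8 channel subunits higher (median 0.04). The Eph receptor gene Epha10 differed by 0.43 ± 0.12, whereas 11 of 18 Eph receptors and ephrins were lower (median -0.02). The focal adhesion gene Vcl differed by 0.16 ± 0.04 in a list of serum response factor cofactors and targets of which 9 of 15 were lower (median -0.03). The matrix protease gene Mmp14 differed by -0.49 ± 0.12, with 13 of 24 matrix genes lower, and the formin gene Fmn1 by -0.26 ± 0.07, with 8 of 13 formins higher. The gap junction gene Gjb6, an astrocyte marker, differed by 0.48 ± 0.16, whereas 7 of 12 astrocyte markers were lower, 2 of them at an unadjusted p under 0.05 against 1 higher. The cation channel gene Trpc6, a marker of dentate granule cells, differed by -0.45 ± 0.11, whereas 6 of 10 of those markers were higher (median 0.11).

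Small differences ran through large housekeeping lists. Of 82 nuclear genes for subunits of the respiratory chain, 68 had a lower fitted level at 3 h (51.4% of all genes), with a median of -0.06. At an unadjusted p under 0.05, 19 were lower (3.66% of all genes) against 1 higher (4.57%). Atp5j, an ATP synthase subunit gene, had 108 ± 4.57 CPM at 0 h and 97.8 ± 3.13 CPM at 3 h (SD, n = 6). Ndufc1, a complex I subunit gene, did not overlap between groups and differed by -0.16 ± 0.04. Of 81 cytosolic ribosomal protein genes 63 were lower, 10 of them at that threshold and none higher, with a median of -0.05. Rps24 differed by -0.14 ± 0.04. From the same naive libraries, the medians at 1 h were -0.09 for respiratory chain and -0.04 for ribosomal genes (-0.085 and -0.053 without WT 1 h M1). In the direct test of 3 h against 1 h the medians were 0.02 and -0.02, so the lower levels were not particular to 3 h. Both families have processed copies in the genome, so reads of some members may be shared or lost.

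Markers of oligodendrocytes and microglia also lay lower, 11 of 12 in each list, with medians of -0.12 and -0.14. The oligodendrocyte median depended on single libraries, at -0.07 without naive replicate F2 or M2, -0.08 without trained replicate F2, -0.05 without trained replicate M3 and -0.19 without trained replicate M2. In mutants it was 0.0001 (-0.16 without mutant 3 h F2). Of the oligodendrocyte markers 2 (Opalin and Aspa) were lower at an unadjusted p under 0.05. Of the microglial markers 4 were lower at that threshold, among them P2ry12 (-0.32 ± 0.09), a purinergic receptor of resting microglia, and Ctss (-0.21 ± 0.06), a lysosomal protease. Of all genes 51.4% had a lower fitted level, and 3.66% were lower at that threshold. The summed level of the 12 oligodendrocyte markers was 5302 to 10050 CPM at 0 h and 5069 to 9369 CPM at 3 h, and that of the 12 microglial markers 407 to 517 CPM and 385.7 to 492.8 CPM, so both overlapped. In whole tissue, fewer cells of a type and less RNA per cell cannot be told apart. With the oligodendrocyte marker level as a covariate the sterol median was -0.15 and the interferon median -0.31. With the choroid plexus level as a covariate the glucocorticoid median was 0.46, the ER median 0.15 and the sterol median -0.15. After thinning to equal depth the 4 medians were 0.38 for glucocorticoid, 0.14 for ER, -0.18 for sterol and -0.27 for interferon genes.

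In mice labelled male and in mice labelled female the medians of the 4 lists lay on the same side. The median difference of sterol genes was -0.10 between the male groups and -0.21 between the female groups, with 18 of 19 members lower in each. Interferon genes lay at -0.18 in males, with 12 of 19 lower, and at -0.43 in females, with 16 lower. Glucocorticoid genes lay at 0.54 in males, with 19 of 20 higher, and at 0.20 in females, with 15 higher. Relative to the naive mean, naive female F2 lay at 0.73 in this list and the other naive females at -0.34 and -0.17, beside 0.31 to 0.45 in the trained females. ER genes lay at 0.25 in males, with 16 of 19 higher, and at 0.07 in females, with 14 higher. Of all 17438 genes, 8796 were higher and 8642 lower between the male groups, and 8761 and 8675 between the female groups. The test of the sex difference in the response called 0 of 17438 genes by edgeR, with 692 at an unadjusted p under 0.05, and 0 by DESeq2.

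Kdm5b deltaARID/deltaARID mutants from the same cross, with their own 6 naive and 6 trained mice, gave a comparison that shared no library with the wild-type one. Across 17166 genes tested in both, which are not independent replicates, the 3 h differences correlated with Pearson's r of 0.27 (0.28 without mutant 3 h F2) and a Spearman rank correlation of 0.38. Of 793 genes higher in wild type at an unadjusted p under 0.05, 733 (92.4%) were also higher in mutants, where 47.9% of all genes were, and 291 reached that threshold there. Of the 632 lower genes tested in both, 557 (88.1%) were lower in mutants, against 52.1% of all genes, and 118 reached it. Of all 17166 genes, 841 were higher and 629 lower at that threshold in mutants. The named genes with the smallest p all had the same sign in mutants (12 of 12 in each direction). Pde10a was at 0.27 (0.35 without mutant 3 h F2), Fmnl1 at 0.30, Mrtfa at 0.35 and Tnc at -0.28. Some were smaller there, with Rhot2 at 0.04 ± 0.05 (0.17 in wild type), A2ml1 at -0.08 ± 0.15 (-0.51) and Hmgcll1 at -0.07 ± 0.07 (-0.24). In mutants edgeR called 0 of 17285 genes at 3 h against 0 h. Without mutant 3 h F2 it called 1, Pde10a, with an adjusted p of 0.0078. The glucocorticoid median was 0.41 in mutants (0.40 without mutant 3 h F2, whose sex label did not match) and the ER median 0.17 (0.20). The sterol median was -0.04 (-0.08) and the interferon median 0.05 (-0.04), against -0.15 and -0.26 in wild type. In mutants Cyp51 was at -0.11 (-0.21 without mutant 3 h F2), Gbp9 at -0.22 (-0.35) and Gbp2 at 0.06 (-0.09). The test of the genotype difference in the 3 h response called 0 of 17926 genes by edgeR, with 273 at an unadjusted p under 0.05, and 0 by DESeq2, so no gene's response was shown to differ between genotypes.

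**Figure D5:**
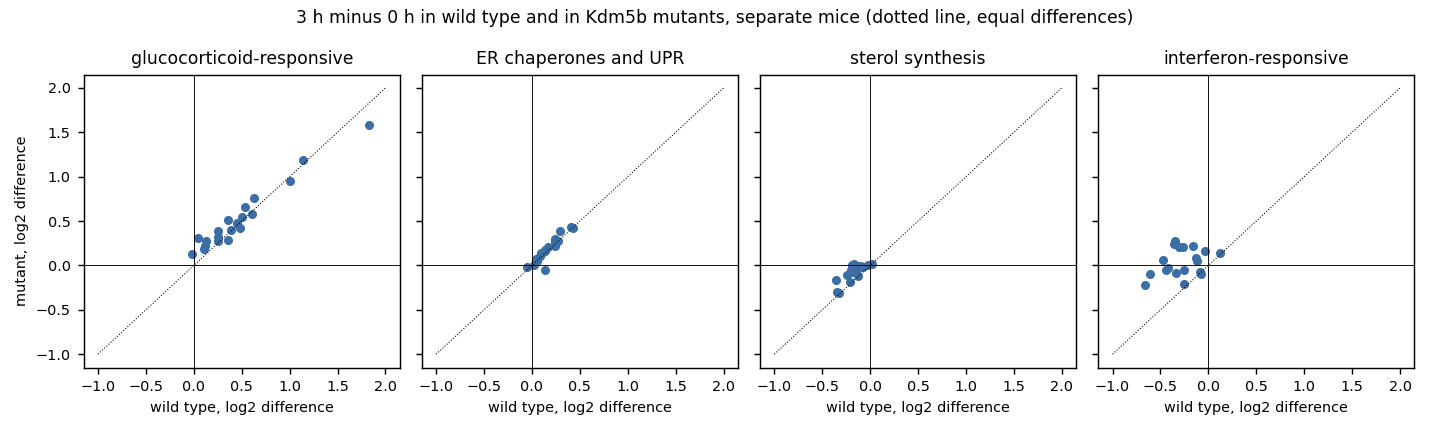
Log2 difference between 3 h and 0 h in wild type (horizontal) and in Kdm5b mutants (vertical) for the members of 4 lists, from separate mice; the dotted line marks equal differences and UPR is the unfolded protein response. Glucocorticoid and ER members lie near the line, while most sterol and interferon members lie above it, with list medians of -0.04 and 0.05 in mutants, and of -0.08 and -0.04 without the library of mutant 3 h F2, which is included in the plot.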

How the data were processed

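Per the labels, poly-A RNA of each mouse was sequenced as 150 bp read pairs. The submitters' processing notes name STAR 2.7.8a and featureCounts 2.0.1 with GRCm38.p6, and the authors deposited raw read counts per gene for each library. The annotation release, strand setting and handling of reads with several matches are not given in the sources used here. Of 27179 genes per file, 25275 were named from RefSeq and 2 from the study's gene table, and the 1902 others held 0.298% of counts. Another 8 samples of the series were not analysed here.

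Counts were filtered with filterByExpr (minimum count 10), scaled by TMM and fitted with edgeR 4.0.16 (R 4.3.3, quasi-likelihood test with sex as a covariate), with Benjamini-Hochberg adjustment over all genes tested and a threshold of 0.05. DESeq2 1.42.0, other filters and scalings, thinning to equal depth, marker levels as covariates, a replicate block and leaving out each library were the alternatives, of which thinning and marker covariates were chosen after seeing the data. The scripts were tested on simulated data. List means used log2(CPM + 0.01). Genes named were the 12 with the smallest p in each direction, Kdm5b, and from each list the first 2 members and the 2 with the smallest p. Gbp2, Plin4, Hif3a, Insig1, Sult1a1, Tns2, Sdf2l1, Mt1, Mt2, Klf9, Atf4, Stat2 and Srebf2, where outside that rule, were named after their values were seen. Members and lists were chosen with earlier results of these data known. Some items are not reported here. Groups came from the labels, and each library is a separate mouse.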

Additional observations from a re-analysis of the deposited data

Results flagged for a closer look

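The 172 groups of 6 wild-type libraries were each a gene, a list mean or the mean of all genes, at 0 h or 3 h. Of these, 10 had a library whose gap to its nearest neighbour was, as a share of the group's range, above Dixon's 95% critical value. Chance alone gives such a gap in about 1 group of every 20. Naive replicate F2 was the library apart for Plin4 (0.826), Sult1a1 (0.837) and Smarcd2 (0.758), in each case as the highest naive library. Naive replicate F1 was apart for Cad (0.638, lowest) and Gbp2 (0.672, highest). Trained replicate M2 was apart for Fosl2 (0.69, highest), Lama4 (0.687, highest) and Gbp9 (0.699, lowest). Trained replicate F2 was the lowest for Aspa (0.727), and trained replicate F3 the highest for P2ry12 (0.757).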

How the results depend on the processing

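edgeR's count of called genes at 3 h against 0 h was 0 with every scaling and filter tried, with all 18 wild-type or all 36 libraries in the fit, with the replicate block and with either marker covariate, while DESeq2 called 62 with sex as a covariate and 51 without it and with a prior on fold changes. Leaving out 1 library gave 0 to 8 called genes, with 8 without naive replicate F2, and 1026 to 1808 genes at an unadjusted p under 0.05. For 3 h against 1 h, DESeq2 called 62 and leaving out 1 library gave 0 to 3, with 3 without WT 1 h M1 and 1 without either WT 1 h F2 or WT 1 h F3. The genotype and sex differences had 0 called genes under all settings run. The cause of these differences was not tested.

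Fos changed sign, to 0.0711 with the oligodendrocyte covariate and within -0.255 to 0.2424 when 1 library was left out. Arc ranged from -0.1918 to 0.0173 and the immediate early median from -0.0198 to 0.1293 on leaving out 1 library. The choroid plexus median turned to 0.0044 with the DESeq2 prior, 0.167 without the sex covariate and 0.0064 with the oligodendrocyte covariate, and ranged from -0.9473 to 0.5289 on leaving out 1 library. The interferon median was -0.0967 with the DESeq2 prior. Over all alternatives the glucocorticoid median ran from 0.0889 (the DESeq2 prior) to 0.5993 (without naive replicate F2), the ER median from 0.1016 to 0.1972, the sterol median from -0.1808 to -0.1322 and the oligodendrocyte median from -0.1913 to -0.006, the last with its own marker level as the covariate.

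Replicate numbers did not pair the libraries, since the deviations of same-numbered libraries correlated between -0.278 and 0.298. With labelled sex and number as a replicate block, edgeR called 0 genes at 3 h against 0 h, with 1332 at an unadjusted p under 0.05, and 0 at 3 h against 1 h.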

Other observations

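Other gene groups showed smaller or mixed differences between 3 h and 0 h, given here as values. Over all genes tested 48.6% had a higher fitted level, and 4.57% were higher and 3.66% lower at an unadjusted p under 0.05. Of 19 circadian clock genes 14 had a higher fitted level, 2 at that threshold against 1 lower, with a median of 0.12. Of 13 MAP kinase phosphatases and feedback inhibitors, which switch off growth factor signalling, 10 were higher, 2 at that threshold and none lower, with a median of 0.07. Of 22 subunits of the BAF chromatin remodelling complex 14 were higher, 4 at that threshold and none lower, with a median of 0.04. Of 24 genes for extracellular matrix and matrix proteases 13 were lower, 3 at that threshold against 1 higher, with a median of -0.01. Cytosolic heat shock chaperones had a median of 0.00 (0.0023), with 10 of 19 higher, beside the ER chaperones at 0.14. No member of these lists was called by edgeR.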
